A study of Homo sapiens with 6 samples.

Results

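The 9 genes that write, erase and read DNA methylation were followed in HEK293T landing pad lines: the methyltransferases DNMT1, DNMT3A and DNMT3B with their cofactor UHRF1, the dioxygenases TET1, TET2 and TET3, the glycosylase TDG and the methyl-CpG reader MBD2. They were chosen by symbol, through the Ensembl identifiers of the count table and GENCODE 29, and 8 of the 9 were found among 20169 gene rows. UHRF1 was not analysed here. The CAG group held 3 libraries of HEK293T cells with a CAG landing pad and the PGK group 3 libraries of HEK293T cells with a PGK landing pad. HEK293T is a human embryonic kidney line with a viral large T antigen, a landing pad is a genomic docking site for a reporter, CAG is a strong hybrid promoter that joins a viral enhancer to actin promoter sequence, and PGK is a housekeeping promoter taken from a glycolytic enzyme gene. Both groups share the host line and its culture medium, and polyadenylated RNA was sequenced from plates below confluence. Per the series' design text the lines are monoclonal, and since the labels distinguish only 1 line for each promoter, the promoter and the clone cannot be told apart. Separate cultures are not stated for the replicates of a line, and p-values therefore measure only how these samples spread, which may be technical.

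DNA methylation in mammals is a methyl group on the cytosine of CpG dinucleotides. DNMT3A and DNMT3B place it on unmethylated DNA, and DNMT1, brought to replicated DNA by UHRF1, copies it onto the new strand. The TET enzymes oxidise methylcytosine, TDG cuts out the more oxidised forms so that base excision repair can restore cytosine, and MBD2 binds methylated CpGs and recruits the NuRD chromatin remodelling and deacetylase complex. Methylation of an inserted promoter is a known route by which transgenes lose expression.

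The 30 coding bases at the catalytic motif are shown for the DNMT and TET genes, because members of each family were set against each other below. This stretch is a small part of each gene's exons, so it does not show how well reads of the genes can be told apart. The bases were read from the GENCODE 29 transcript with the longest open reading frame, 5′ to 3′. Capitals mark the codon of the catalytic cysteine in the DNMT genes, and the codons of the first histidine and the aspartate of the iron-binding motif in the TET genes.
DNMT1 (chromosome 19): ggcgggccgcccTGCcagggcttcagcggc
DNMT3A (chromosome 2): gggggcagtcccTGCaatgacctctccatc
DNMT3B (chromosome 20): ggcggaagcccaTGCaacgatctctcaaat
TET1 (chromosome 10): CACaggGACattcacaacatgaataatgga
TET2 (chromosome 4): CACagaGACttgcacaacatgcagaatggc
TET3 (chromosome 2): CACaagGACcagcataacctctacaatggg
DNMT3A and DNMT3B had 21 of these 30 bases in common, and TET1 and TET2 had 24. DNMT1 shared 17 with DNMT3A and 14 with DNMT3B, and TET3 shared 20 with TET1 and 20 with TET2.

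Library totals ran from 22450538 to 23442542 counts in CAG and from 21896246 to 22889708 in PGK. Levels are CPM, counts per 1e6 counts, on TMM-scaled library sizes, fold changes are CAG over PGK, and a gene was called when its p in edgeR's quasi-likelihood test, adjusted over all 13103 tested genes by Benjamini-Hochberg, was under 0.05. That rule called 62.0% of all tested genes, 31.6% higher and 30.4% lower in CAG, and 67.2% of the called genes differed by less than 1.5-fold. Of 9 HEK293 markers 7 had a row, 4 of them higher and 0 lower, and they summed to 809 to 851 CPM in the CAG libraries and 602 to 610 CPM in the PGK libraries. The keratin KRT8, the neuronal filament gene INA and the kidney regulator EYA1 rose by 2.30, 2.13 and 1.03 on the log2 scale. Named as a check of the line after their values were seen, the intermediate filament gene VIM was expressed in both lines, at 631 CPM in CAG and 456 CPM in PGK, while PAX2 was low, at 1.27 CPM in CAG and 1.55 CPM in PGK. Of 9 markers of other cell types 8 had a row and summed to 23.0 to 23.5 CPM in the CAG libraries and 19.6 to 20.5 CPM in the PGK libraries, nearly all of it COL1A1. CD3E, ALB and HBB had 0 counts in every library. KRT8, EYA1 and VIM share exonic bases with genes on the other strand, so their levels are uncertain.

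All 8 genes were expressed in both lines and passed the low-count filter, and 4 of them were called, 2 higher and 2 lower, where 62.0% of all tested genes were called. DNMT1 and TET1 fell and TET2 rose in the CAG line, each by less than 1.5-fold, and the smaller rise of DNMT3A depended on the settings. Calls on DNMT3B, TET3, TDG and MBD2 were not made. The median log2 fold change of the 8 genes was -0.006, against -0.002 for all tested genes, and the median of its absolute value was 0.15, against 0.26. In the libraries the groups did not overlap for 5 of the 8, 3 with CAG below (DNMT1, DNMT3B and TET1) and 2 with CAG above (DNMT3A and TET2), where 65.5% of all tested genes did not overlap, 32.0% with CAG below and 33.5% with CAG above. In bulk RNA, fewer expressing cells and less RNA per cell cannot be told apart.

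**Figure D1:**
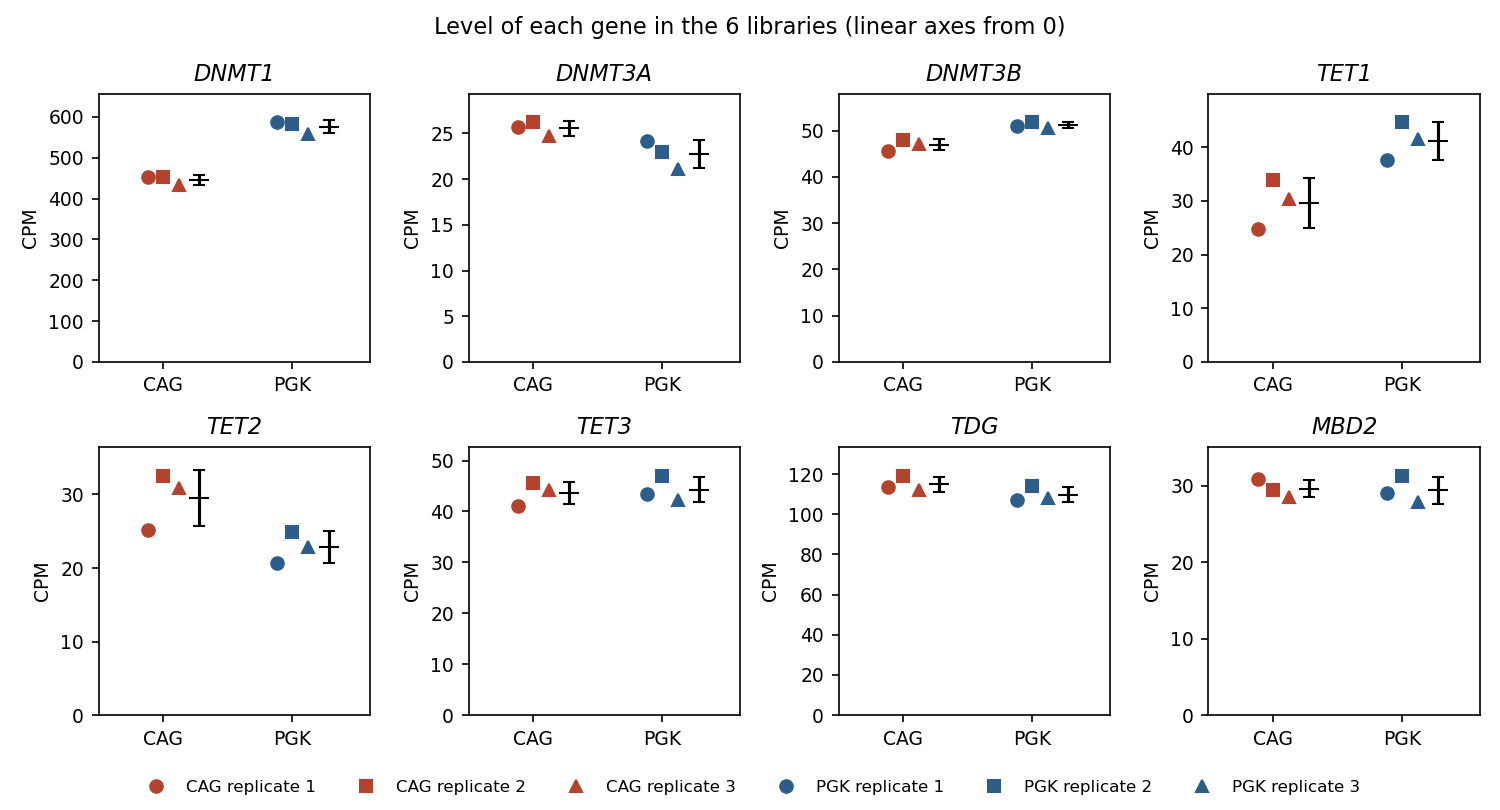
CPM of the 8 genes in each library, with CAG left of PGK, 1 symbol per replicate, and the mean and SD of 3 libraries in black; each axis is linear and starts at 0. The CAG libraries lie below the PGK libraries for DNMT1, DNMT3B and TET1 and above them for DNMT3A and TET2, and the groups overlap for TET3, TDG and MBD2.

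DNMT1, the maintenance methyltransferase (ENSG00000130816, chromosome 19), had 452, 452 and 432 CPM in the CAG libraries, against 587, 583 and 559 CPM in the PGK libraries. All 3 CAG libraries lay far below the lowest PGK library, and the libraries of a line were close together. It averaged 446 ± 11.3 CPM in CAG and 576 ± 15.4 CPM in PGK (SD, n = 3 each) and fell by 22.7%, a log2 fold change of -0.37 (SE 0.05) with an adjusted p of 9.7e-07 in edgeR's quasi-likelihood test. It was the most deeply counted of the 8 genes, at 10196 to 10662 counts in CAG libraries and 12604 to 12979 in PGK libraries, and its level exceeded that of 98.2% of tested genes. Its exons share 83 bases with S1PR2 on the same strand, out of 9.80 kilobases.

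The de novo methyltransferases differed less. DNMT3A (ENSG00000119772, chromosome 2) had 25.7, 26.2 and 24.7 CPM in CAG, against 24.1, 23.0 and 21.2 CPM in PGK. The lowest CAG library was only just above the highest PGK library. It averaged 25.6 ± 0.772 CPM in CAG and 22.8 ± 1.49 CPM in PGK (SD, n = 3 each), a log2 fold change of 0.17 (SE 0.07) with an adjusted p of 0.0426 in edgeR's quasi-likelihood test. Its call did not hold when low counts were left in (adjusted p 0.0612), with DESeq2 (0.131), or without CAG replicate 1, CAG replicate 2, CAG replicate 3, PGK replicate 2 or PGK replicate 3, where edgeR's adjusted p ran from 0.0550 to 0.206.

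DNMT3B (ENSG00000088305, chromosome 20) had 45.7, 48.1 and 47.2 CPM in CAG, against 51.1, 51.8 and 50.5 CPM in PGK. Every CAG library was below every PGK library, by a small margin. The means were 47.0 ± 1.20 CPM in CAG and 51.1 ± 0.657 CPM in PGK (SD, n = 3 each), a log2 fold change of -0.12 (SE 0.05, 95% interval -0.23 to -0.02), which was not called, with an adjusted p of 0.0525 in edgeR's quasi-likelihood test. With RLE size factors in place of TMM it was called, at -0.13 with an adjusted p of 0.0412.

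Called shares of all tested genes under the alternatives give the scale for these gains and losses. They were 51.1% with no low-count filter, 63.2% with a filter of 1 CPM in 3 libraries, 62.1% with RLE size factors, 61.1% by library size only, 51.0% with DESeq2, 61.8% with limma-voom, 67.6% with the replicate number as a block and 11.5% against a fold of 1.5. Without CAG replicate 1, 2 or 3 they were 57.2%, 56.6% and 55.5%, and without PGK replicate 1, 2 or 3 they were 60.6%, 60.3% and 56.7%.

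TET1 (ENSG00000138336, chromosome 10), which carries a domain that binds unmethylated CpG, had 24.7, 33.9 and 30.3 CPM in CAG, against 37.5, 44.6 and 41.5 CPM in PGK. Every CAG library was below every PGK library, but the libraries of each line were spread widely. TET1 averaged 29.6 ± 4.65 CPM in CAG and 41.2 ± 3.55 CPM in PGK (SD, n = 3 each) and fell by 28.1%, a log2 fold change of -0.47 (SE 0.10) with an adjusted p of 0.00117 in edgeR's quasi-likelihood test. This was the largest change among the 8 genes, and it exceeded the absolute change of 71.8% of tested genes.

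TET2 (ENSG00000168769, chromosome 4), a paralog without that domain, had 25.2, 32.6 and 30.8 CPM in CAG, against 20.7, 24.95 and 22.9 CPM in PGK. The order of the lines was opposite to that of TET1, and CAG replicate 1 lay only just above PGK replicate 2. TET2 averaged 29.6 ± 3.84 CPM in CAG and 22.8 ± 2.13 CPM in PGK (SD, n = 3 each) and rose by 29.5%, a log2 fold change of 0.37 (SE 0.09) with an adjusted p of 0.00219 in edgeR's quasi-likelihood test.

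TET3 (ENSG00000187605, chromosome 2), the TET enzyme known from the fertilised egg in mice, had 41.2, 45.5 and 44.1 CPM in CAG, against 43.5, 47.1 and 42.3 CPM in PGK. The libraries of the lines were intermixed. The log2 fold change was -0.02 (SE 0.06, 95% interval -0.14 to 0.10), with an adjusted p of 0.775 in edgeR's quasi-likelihood test, and its sign turned to 0.01 when counts were scaled by library size only.

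TDG (ENSG00000139372, chromosome 12) had 113.5, 119 and 112 CPM in CAG, against 107, 114 and 108 CPM in PGK. The groups overlapped through PGK replicate 2, which was above 2 of the CAG libraries. Its log2 fold change was 0.07 (SE 0.05, 95% interval -0.03 to 0.17), with an adjusted p of 0.251 in edgeR's quasi-likelihood test. Processed copies of TDG and TET1 are annotated as TDGP1 and TET1P1, so reads may be shared or lost there.

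MBD2 (ENSG00000134046, chromosome 18) had 30.8, 29.5 and 28.5 CPM in CAG, against 29.02, 31.3 and 27.9 CPM in PGK. The highest and the lowest library were both of the PGK line. The log2 fold change was 0.01 (SE 0.07, 95% interval -0.12 to 0.14), with an adjusted p of 0.906 in edgeR's quasi-likelihood test.

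The spread within a line was not the same for all 8 genes. The coefficient of variation of TET1 was 15.7% in CAG and 8.62% in PGK, against 3.80% and 3.31% from counting alone at its depth. For TET2 it was 12.99% in CAG and 9.34% in PGK, against 3.80% and 4.44% from counting. DNMT3B stayed at or below its counting error, with 2.55% in CAG and 1.28% in PGK against 3.02% and 2.97%. TET1 and TET2 were each lowest in replicate 1 and highest in replicate 2 of both lines. In CAG replicate 1, TET1 lay 0.25 and TET2 lay 0.22 below the mean of its line on the log2 scale (deviations of -0.25 and -0.22), and in CAG replicate 2 the deviations were 0.21 and 0.15. Genes with at least 8 kilobases of exons, 2913 in number, had median deviations of -0.04 in CAG replicate 1, 0.03 in CAG replicate 2, -0.03 in PGK replicate 1 and 0.05 in PGK replicate 2, and between the lines a median log2 fold change of 0.04, against -0.02 for the other 10008 genes. DNMT1, DNMT3A and TET3 also have at least 8 kilobases of exons. In CAG replicate 1 their deviations were 0.02, 0.01 and -0.08, and in PGK replicate 1 they were 0.03, 0.09 and -0.02. The part of transcript length in the values of TET1 and TET2 was not tested.

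TET1 and TET2 moved together within a line and apart between the lines, and their ratio was steadier within a line than either level. Per kilobase of exon, TET1 was 1.74, 1.85 and 1.74 times TET2 in the CAG libraries, against 3.22, 3.17 and 3.21 times in the PGK libraries. This ratio was chosen after the values were seen. It averaged 1.78 ± 0.0632 in CAG and 3.20 ± 0.0253 in PGK (SD, n = 3 each), and with 3 libraries against 3 an exact permutation test cannot give a two-sided p under 0.10. Of the summed TET level per kilobase, TET1 made up 37.2 ± 1.94% in CAG and 47.0 ± 1.18% in PGK, TET2 21.0 ± 0.601% in CAG and 14.7 ± 0.419% in PGK, and TET3 41.8 ± 2.42% in CAG and 38.3 ± 1.59% in PGK. The groups were apart for the shares of TET1 and TET2 and overlapped for TET3. The summed TET level itself overlapped, at 8.54 ± 0.912 CPM per kilobase in CAG and 9.43 ± 0.667 in PGK.

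Among the writers, DNMT3B was 4.61, 4.76 and 4.95 times DNMT3A per kilobase in CAG, against 5.49, 5.86 and 6.20 times in PGK. Every CAG library was below every PGK library. The summed DNMT level was 57.7 ± 1.20 CPM per kilobase in CAG and 71.8 ± 1.79 in PGK (SD, n = 3 each), also without overlap, and DNMT1 made up 78.8 ± 0.551% of it in CAG and 82.0 ± 0.158% in PGK. The ratio of the DNMT sum to the TET sum was 7.71, 6.28 and 6.46 in CAG and 8.25, 7.16 and 7.499 in PGK, and these ranges overlapped.

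**Figure D2:**
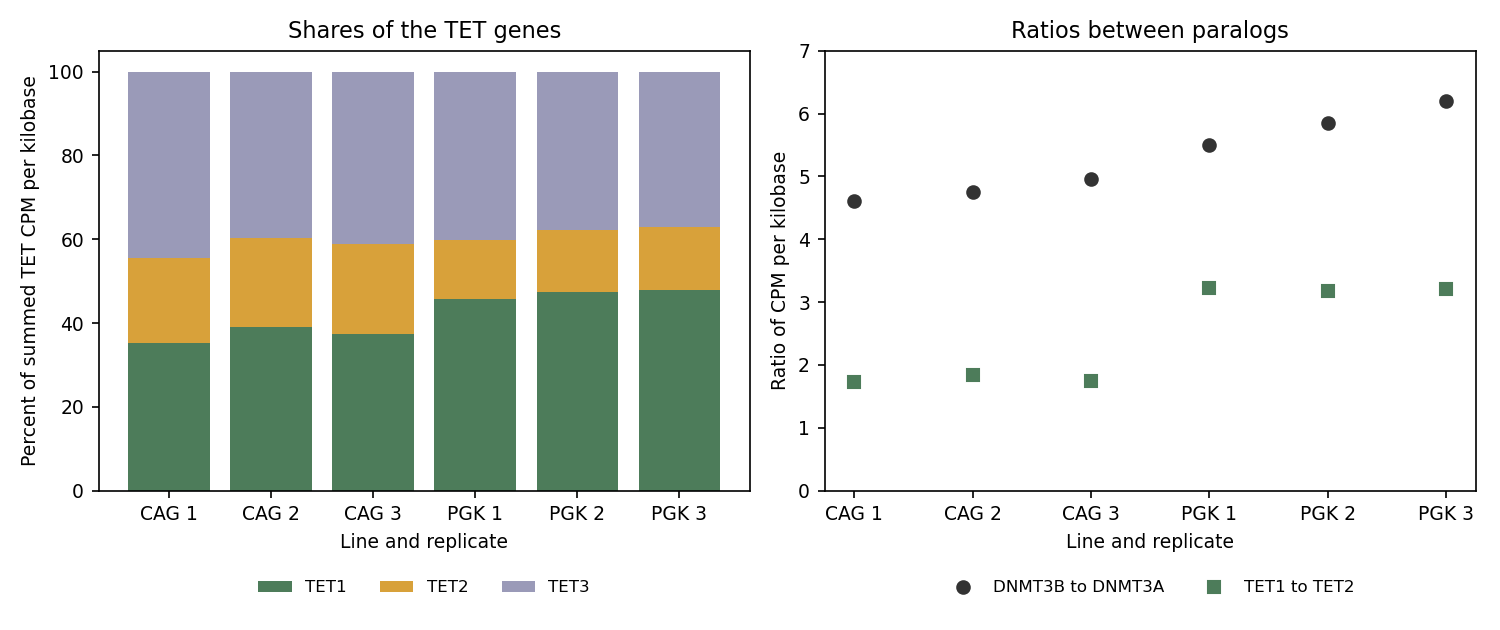
Left, the share of each TET gene in the summed TET CPM per kilobase, as stacked bars from 0 to 100% for each library; right, the ratio of DNMT3B to DNMT3A and of TET1 to TET2 in CPM per kilobase, 1 symbol per library. TET2 holds 20.3 to 21.5% in CAG and 14.2 to 14.9% in PGK, and the TET1 to TET2 ratio is 1.74 to 1.85 in CAG and 3.17 to 3.22 in PGK.

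Ordered by level per kilobase of annotated exon, DNMT1 was highest in both lines, at 45.5 CPM per kilobase in CAG and 58.8 in PGK. It was followed by TDG at 23.5 in CAG and 22.4 in PGK, DNMT3B at 10.1 in CAG and 11.0 in PGK, and MBD2 at 5.10 in CAG and 5.06 in PGK. The ranges of these 4 genes did not overlap each other in either line. In CAG the order went on with TET3 at 3.55 and TET1 at 3.19, whose ranges overlapped, while in PGK TET1 came before TET3, at 4.44 against 3.61 without overlap, and TET1 overlapped MBD2. DNMT3A, at 2.13 in CAG and 1.89 in PGK, and TET2, at 1.79 in CAG and 1.39 in PGK, were lowest in both lines, without overlap. The exon length is the union over all annotated transcripts, so levels per kilobase are approximate where a long transcript is not used.

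The genes that lie around DNMT1 and TET2 differed between the lines in the same direction as these genes. For each gene, the 25 tested genes on either side along the chromosome were taken, without the gene itself. Of the 50 neighbours of DNMT1, 34 were called lower and 3 higher in CAG, with a median log2 fold change of -0.39, next to -0.37 for DNMT1. Of the 50 neighbours of TET2, 43 were higher and 2 lower, with a median of 0.57, above the 0.37 of TET2. TET1 was lower than most of its surroundings, since its neighbours had a median of -0.15, with 24 lower and 11 higher, and 42 of the 50 lay above it. DNMT3A went the other way from its neighbours, whose median was -0.13 with 19 lower and 9 higher, and 43 of the 50 lay below it. Of the 4 called genes, DNMT1 and TET2 were thus the 2 whose neighbours had a median past 0.25 in their own direction, where 35.7% of all called genes with a symbol did. Around DNMT3B, TET3, TDG and MBD2 the medians were between -0.09 and -0.01. The part of the chromosome neighbourhood in the change of any gene was not tested.

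**Figure D3:**
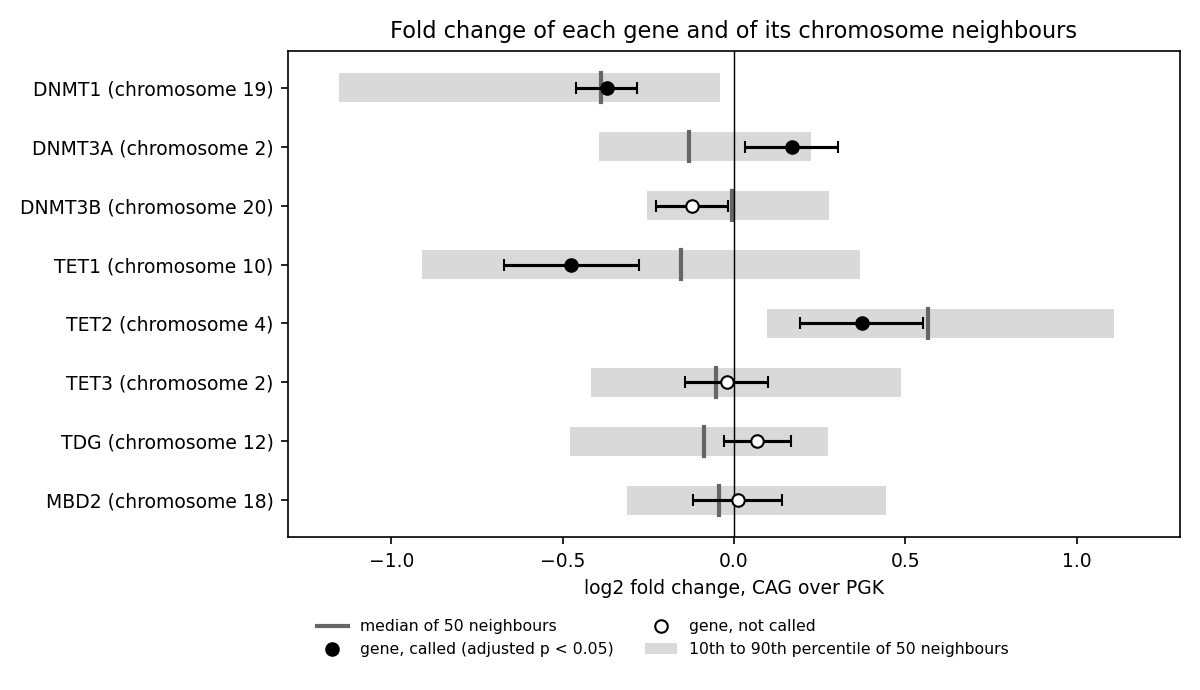
Log2 fold change (CAG over PGK) of each gene with its 95% interval (circle, filled where called), over the 10th to 90th percentile (grey bar) and the median (grey line) of its 50 neighbouring tested genes. DNMT1 at -0.37 sits on its neighbours' median of -0.39, TET2 at 0.37 below its neighbours' median of 0.57, and TET1 at -0.47 below its neighbours' median of -0.15.

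The 3 tested genes whose log2 CPM followed TET1 most closely over the 6 libraries were TPR, a nuclear pore protein (Pearson r 0.998, log2 fold change -0.36), CDK6, a cyclin-dependent kinase (0.998, -0.26), and GPATCH2L (0.996, -0.31). They lie on chromosomes 1, 7 and 14. All 6 points share the 2 lines and the library depths, and 222 tested genes had an r over 0.95 with TET1, so the likeness is a description only.

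The cofactors of the writers went in both directions. Of 13 listed genes 12 were tested, of which 4 were higher and 4 lower (66.7%, against 62.0% of all tested genes), with a median log2 fold change of -0.003. LIG1, the replicative DNA ligase that also binds UHRF1, had 134.6, 124 and 124 CPM in CAG, against 51.5, 49.7 and 55.0 CPM in PGK. The lines were far apart, and LIG1 rose by 1.29 (SE 0.06) on the log2 scale, with an adjusted p of 9.9e-13 in edgeR's quasi-likelihood test. SETD2, whose histone mark recruits the de novo enzymes, rose by 0.50, and USP7, a deubiquitinase that stabilises DNMT1, by 0.13. HELLS, a remodeller needed for methylation of repeats, changed by -0.42, to 126 ± 3.40 CPM in CAG against 169 ± 2.53 CPM in PGK (SD, n = 3 each). ZBTB24, mutated with HELLS and DNMT3B in the same immunodeficiency syndrome, changed by -0.32, and MAT2B, a regulatory subunit in the synthesis of the methyl donor, by -0.43. The UHRF1 paralog UHRF2 (adjusted p 0.801) and the HELLS partner CDCA7 (adjusted p 0.933 in edgeR's quasi-likelihood test), both chosen after their values were seen, were not called, and DNMT3L, a germ cell cofactor of the de novo enzymes, had 0 counts in every library. The higher count was 2 in place of 4 without CAG replicate 1, CAG replicate 2 or PGK replicate 1, and with DESeq2. The call on USP7 was lost in these fits and without PGK replicate 3. LIG1 shares exonic bases with an antisense gene, and HELLS and ZBTB24 with genes on the same strand, so their levels are uncertain.

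Downstream of the TET enzymes and TDG, genes of base excision repair and TET partners went in both directions. Of 16 tested, 6 were higher and 6 lower (75.0%, against 62.0% of all tested genes), with a median of 0.01 and a median absolute log2 fold change of 0.40, against 0.26 over all tested genes. PARP1, which senses DNA breaks, had 2083, 2085 and 2015 CPM in CAG, against 1205, 1136 and 1107 CPM in PGK. This was a rise of 0.84 (SE 0.05) on the log2 scale, with an adjusted p of 4e-11 in edgeR's quasi-likelihood test. XRCC1, the repair scaffold, rose by 0.90 and the glycosylase NEIL1 by 0.84. APEX1, the endonuclease that follows TDG, changed by -0.54, and GADD45B, implicated in active demethylation, by -0.67. The GADD45B paralog GADD45A, chosen after its values were seen, went the other way and was called higher, with a rise of 0.65. CXXC4, which binds unmethylated CpG and is known to lower TET2 protein, was at 3.42 ± 0.248 CPM in CAG and 5.90 ± 0.612 CPM in PGK (SD, n = 3 each) and fell by 0.79 (SE 0.13), with an adjusted p of 3.3e-05 in edgeR's quasi-likelihood test. CXXC4 is the tested gene next to TET2 on chromosome 4, and it went against its 50 neighbours, of which 45 were called higher and 0 lower. NEIL1, XRCC1, APEX1 and CXXC4 share exonic bases with genes on the other strand, and with a strand setting not given in the sources used here their levels are uncertain. XRCC1 also shares 224 exonic bases with a gene on the same strand, so its level is uncertain under any strand setting.

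Other methyl-CpG readers and the complex that MBD2 recruits were measured next. Of 9 readers 3 were higher and 1 lower (44.4%, against 62.0% of all tested genes), with a median of 0.05. MBD5 averaged 11.3 ± 0.395 CPM in CAG and 7.33 ± 0.907 CPM in PGK (SD, n = 3 each) and rose by 0.62 on the log2 scale, and MBD6 rose by 0.15. MBD3, the NuRD subunit that is the closest paralog of MBD2, changed by -0.36. Of 12 NuRD subunits 6 were higher and 2 lower (66.7%, against 62.0% of all tested genes), with a median of 0.08. The histone chaperone RBBP4 was at 413, 413 and 391 CPM in CAG, against 237.5, 252 and 235 CPM in PGK, a rise of 0.75 (SE 0.05) with an adjusted p of 1.7e-10 in edgeR's quasi-likelihood test. CDK2AP1 rose by 0.72 and the deacetylase HDAC1 by 0.63, while MTA2 changed by -0.24 and GATAD2A, which binds MBD2 directly, by -0.13. The lower count of NuRD subunits was 1 without CAG replicate 2 and 1 when scaled by library size only, and that of the readers was 2 without CAG replicate 1 or PGK replicate 1 and with no low-count filter. The call on MBD6 was lost with DESeq2 and without CAG replicate 1 or PGK replicate 3, and that on GATAD2A without CAG replicate 2 and by library size only. RBBP4, MBD5 and MBD6 share exonic bases with genes on the other strand, CDK2AP1 with a gene on the same strand and MBD3 with genes on both, so their levels are uncertain.

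Proteins with a CXXC domain, which bind unmethylated CpG, numbered 6 tested. Of these, 3 were higher and 1 lower (66.7%, against 62.0% of all tested genes), with a median of 0.12. The methyltransferase KMT2B rose by 0.52, and the demethylases KDM2B and KDM2A by 0.40 and 0.17, while CXXC1, a subunit of a histone methyltransferase complex, changed by -0.35. KMT2B and KDM2B share exonic bases with genes on the other strand and are uncertain. Over these 5 lists, 36 of 55 tested genes were called, and 16 of the 36 lay among neighbours whose median was past 0.25 in the gene's own direction, or 44.4%, with 1, CXXC4, among neighbours shifted the other way. Of all 8049 called genes with a symbol 35.7% lay among neighbours shifted their own way and 2.199% among neighbours shifted the other way. The 16 held genes of both directions. Higher genes among them were LIG1, SETD2, XRCC1, PARP1, NEIL1, GADD45A, RBBP4, HDAC1, CDK2AP1, KMT2B and KDM2B. The neighbour medians of these higher genes ran from 0.32 for NEIL1 to 0.70 for XRCC1. Lower genes among them were HELLS, MAT2B, GADD45B, MBD3 and GATAD2A, with neighbour medians from -0.58 for GATAD2A to -0.31 for HELLS.

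**Figure D4:**
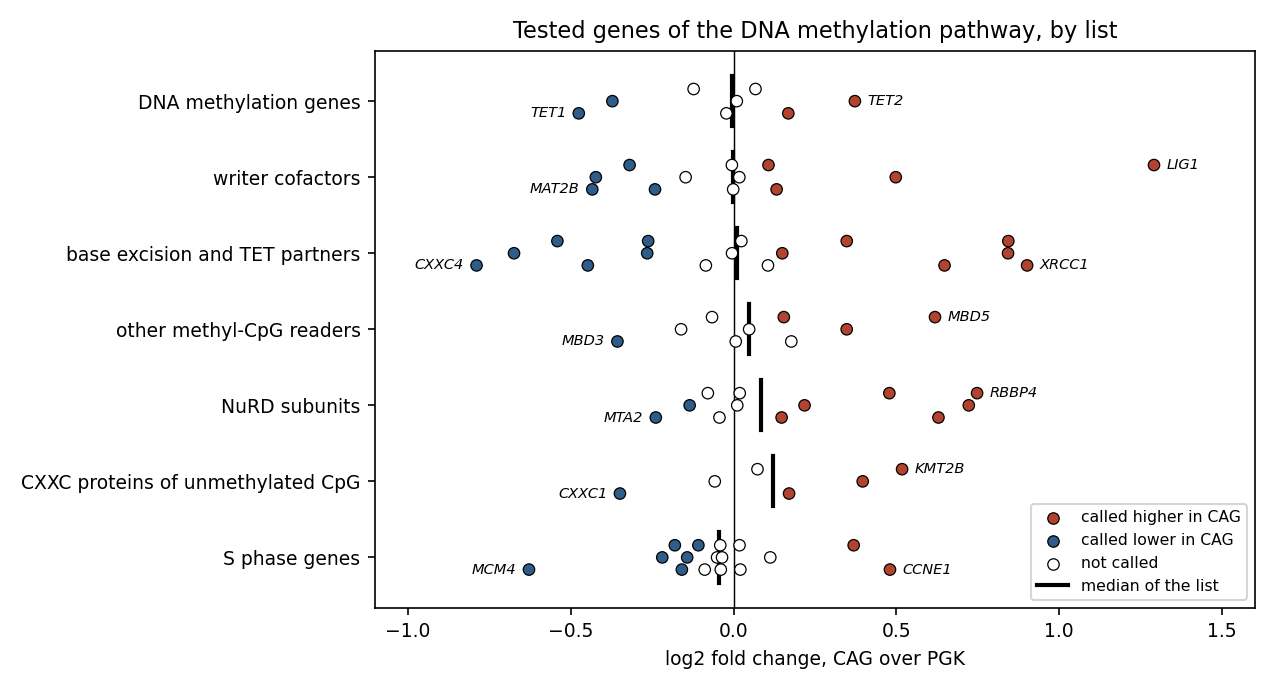
Log2 fold change (CAG over PGK) of every tested gene in the DNA methylation genes, the 5 pathway lists and the S phase genes; circles are genes, filled where called, and vertical bars are list medians. Called genes lie on both sides of 0 in every list, the lowest and highest gene of each is named, and LIG1 at 1.29 is the farthest out.

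DNMT1 is most expressed in S phase, so genes of that phase were set beside it. Of 16 S phase genes 2 were higher and 6 lower, where 31.6% of all tested genes were higher and 30.4% lower, with a median log2 fold change of -0.05, and they summed to 3773 to 3830 CPM in the CAG libraries and 4280 to 4312 CPM in the PGK libraries. The helicase subunits MCM4 and MCM7 changed by -0.63 and -0.18 and the ribonucleotide reductase subunit RRM2 by -0.22, while the cyclins CCNE1 and CCNE2 rose by 0.48 and 0.37. MCM4 alone averaged 487 ± 8.75 CPM in CAG and 752 ± 29.1 CPM in PGK (SD, n = 3 each). MCM7, CCNE2 and RRM2 share exonic bases with other genes and are uncertain. The lower count was 3 without CAG replicate 3, and the part of the cell cycle in the DNMT1 result was not tested.

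Among germline genes known to be silenced by promoter methylation in somatic cells, GTSF1, MAGEA1 and MAGEB2 were higher in the CAG line, while many had few or no counts in either line. Of 20 such genes 8 had 0 counts in all 6 libraries (DAZL, SYCE1, TEX101, TDRD1, BRDT, MAGEA4, CTAG1B and SSX2). In these libraries 3 counts would be 0.126 to 0.140 CPM. The low-count filter was passed by 6, among which GTSF1 and MAGEA1 passed only through the CAG libraries. Of these 6, 4 were called higher and 1 lower (83.3%, against 62.0% of all tested genes). GTSF1 had 47.1, 42.7 and 43.9 CPM in CAG, against 0 counts in every PGK library, at least 329.5-fold higher. MAGEA1 had 119, 119 and 121 CPM in CAG and 2 counts in all in PGK, which makes CAG 3981 times as high (counting error alone allows 1102 to 32870 times, 95%). MAGEB2 averaged 9.06 ± 0.188 CPM in CAG and 2.85 ± 0.296 CPM in PGK (SD, n = 3 each), PRAME was lower, with a log2 fold change of -0.14, and TEX14 was not called (adjusted p 0.0937 in edgeR's quasi-likelihood test). TEX19 was called higher at an adjusted p of 0.0360 in edgeR's quasi-likelihood test, but the higher count was 3 in place of 4 with no low-count filter, with DESeq2, and without CAG replicate 1, 2 or 3 or PGK replicate 1 or 3. The call on PRAME was lost by library size only and without CAG replicate 2, CAG replicate 3 or PGK replicate 3. These genes were listed with the changes of GTSF1 and MAGEA1 already known, so their count is no independent evidence. MAGE, SSX and CTAG genes have near-identical copies, and TEX19, TEX14 and PRAME share exonic bases with other genes, so their counts are uncertain. DNA methylation itself was not measured.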

How the data were processed

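Directional libraries of polyadenylated RNA from 6 HEK293T samples, 3 with a CAG and 3 with a PGK landing pad, were sequenced. The table the authors deposited holds unnormalized whole counts of reads for 20169 Ensembl identifiers, and each of its 6 columns carries a sample's label. The submitters' processing notes name the build hg19 and featureCounts 2.0.3, HISAT2 2.2.1, Bowtie2 2.5.1 and cutadapt 4.6. Annotation release, strand setting and handling of multimapping reads were not given in the sources used here. Symbols, gene order, exon lengths and overlaps came from GENCODE 29, which is built on GRCh38, so no coordinates are given; 19346 rows had a symbol.

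Counts were filtered with filterByExpr, scaled by TMM and tested with edgeR 4.0.16 in R 4.3.3 (quasi-likelihood, robust, two-sided, Benjamini-Hochberg over 13103 genes); the biological coefficient of variation was 0.0494. The SE was derived from the fold change and the F statistic, and 95% intervals are normal. Correlations and deviations used log2 CPM with a prior count of 2. Floors and intervals of counts cover counting error only. The method was tested on simulated counts in which far fewer genes changed than were called here.

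The genes, lists and tests were chosen with earlier results of these data known. Named genes were the members, up to 3 called genes of largest change per direction in each list, and the 3 most like TET1; others are said to be chosen later. Values of some listed genes are not reported here. Same-numbered replicates of the lines were not treated as paired: deviations from the line means correlated at 0.108, 0.103 and 0.0131. Alternatives were other filters, RLE, library size only, DESeq2 1.42.0, limma-voom (limma 3.58.1), a test against 1.5-fold, a replicate block and leaving out each library.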

Additional observations from a re-analysis of the deposited data

How the results depend on the processing

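Tested against a fold of 1.5, 1512 genes (11.5% of those tested) were called in place of 8125. Members had 0 higher and 0 lower, writer cofactors 1 and 0, base excision and TET partners 3 and 0, and readers 0 and 0. NuRD subunits had 2 and 0, CXXC proteins 0 and 0, and S phase genes 0 and 0. Germline genes had 3 higher and 0 lower. This test asks for a larger change by construction. With DESeq2 the members had 1 higher and writer cofactors 2 higher. With no low-count filter 1 member was higher and 2 readers lower. By library size only, 1 NuRD subunit and 0 germline genes were lower, and TET3 turned to 0.0112. Leaving out 1 library at a time gave 7326 to 8030 called genes, 1 to 2 members higher and 2 lower in each fit, 2 to 3 writer cofactors higher, 1 to 2 NuRD subunits and 1 to 2 readers lower, 3 to 6 S phase genes lower and 0 to 1 germline genes lower. TET3 ranged from -0.057 to 0.0221 and MBD2 from -0.0302 to 0.056 in those fits; TET3 turned positive without CAG replicate 1 (0.01) and PGK replicate 2 (0.0221), and MBD2 negative without CAG replicate 1 (-0.02), PGK replicate 1 (-0.001) and PGK replicate 3 (-0.0302). Where a call changed, the cause was not tested. DNMT1, TET1 and TET2 kept their direction and call in 13 of 14 alternatives, the exception being the fold of 1.5; their log2 fold changes ran from -0.40 to -0.34, from -0.58 to -0.37 and from 0.30 to 0.47. DNMT3A kept its direction in all 14 and its call in 6. With the replicate number as a block (a shared number, not a pairing), 8861 genes were called, and DNMT3B was also called, at -0.12 with an adjusted p of 0.0229 in edgeR's test; no other call among the members changed.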
